A study of Mus musculus with 5 samples.

Results

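The fucosyltransferase genes *Fut1*, *Fut2*, *Fut4*, *Fut7*, *Fut8*, *Fut9*, *Fut10* and *Fut11* were examined by whole-genome bisulfite sequencing (WGBS) in mouse leukemic blasts with and without TET2. The 8 genes were chosen by symbol among the 21755 protein-coding genes of the autosomes and the X chromosome in the GENCODE vM21 annotation of GRCm38. *Fut8* stood at the centre because the study picked it out as a candidate target whose RNA was lower with TET2 loss. From its WGBS of such blasts the study had already reported that, among its candidates, only *Gata2* gained methylation at a promoter. The 5 libraries used here are those data, so the *Fut8* promoter result below is not independent of that report. The question here was whether DNA methylation of *Fut8* differed between the genotypes at its promoter and along the gene. Of the 5 libraries, 2 came from *Cebpa*-/p30 *Tet2*+/+ blasts (numbered 23 and 24) and 3 from *Cebpa*-/p30 *Tet2*-/- blasts (numbered 5, 7 and 8). All 5 were from C57BL/6 animals and had lost the normal *Cebpa* allele, so that both groups produced only the short p30 form of CEBPA, a myeloid transcription factor. Per the methods of the study, floxed *Cebpa* and *Tet2* alleles were deleted with *Mx1*-Cre, switched on by poly(I:C), after bone marrow had been transplanted into irradiated recipients. The study describes this knockout as specific to blood-forming cells. In general *Mx1*-Cre also acts in some other cells. Donor-derived CD45.2+ bone marrow cells lacking CD3, B220 and Ter119 were sorted, so each library is a bulk of sorted cells, and unequal methylation cannot be told apart from unequal mixtures of cells. The labels give no age for the animals.

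Fucosyltransferases move fucose from GDP-fucose onto sugar chains. FUT8 is the only enzyme that places core fucose on the innermost sugar of N-glycans. FUT1 and FUT2 make the H antigen with an alpha-1,2 bond, FUT4, FUT7 and FUT9 add alpha-1,3 fucose and build Lewis X structures, of which FUT7 and FUT4 make the sialyl Lewis X that lets white blood cells roll on selectins, and FUT10 and FUT11 are more distant relatives of the alpha-1,3 enzymes that act in the endoplasmic reticulum. TET2 oxidizes 5-methylcytosine, a first step of demethylation. Many promoters are CpG-dense and unmethylated in every tissue, whereas gene bodies are mostly methylated. Bisulfite reads 5-methylcytosine and 5-hydroxymethylcytosine alike, so a level here is their sum, given as the percent of calls that were methylated, and a difference is in percentage points (*Tet2*-/- mean minus *Tet2*+/+ mean).

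In short, *Fut8* around its CpG-dense start, and *Fut4* and *Fut11* in the first 1 kb after theirs, were nearly free of methylation in all 5 libraries. The 500 bp before the *Fut11* start were more methylated, at 8.14% to 31.4%. Larger differences between the genotypes lay 1 to 1.5 kb after the start in *Fut4* and *Fut11* and further into the gene in *Fut8*. The *Fut11* difference at 1 to 1.5 kb did not pass (edgeR adjusted p = 0.0683). *Fut4* after its first 1 kb averaged 55.7% in *Tet2*+/+ and 86.5% in *Tet2*-/- blasts, *Fut11* 58.3% and 77.7%, and the *Fut8* body after its first 5 kb, a division made after values were seen, 78.8% and 89.6%. Over all bodies without their first 1 kb or 5 kb, median differences were 6.20 and 5.93 points, and 10.3% and 5.39% passed as higher. The whole *Fut8* body averaged 66.7% and 70.1%, with overlapping groups (edgeR adjusted p = 0.565). Without *Tet2*+/+ 24 the *Fut8* difference after the first 5 kb was 6.25 points in place of 10.8 and no longer passed. The *Fut4* difference after the first 1 kb was then 22.8 points and no longer passed either. Of the single libraries, only leaving out *Tet2*-/- 7 kept the *Fut8* and *Fut11* calls. *Fut1* showed its largest difference directly upstream of its start. No promoter of the 8 genes passed the test as a whole, and *Fut9* was the only one with a lower mean in *Tet2*-/- blasts, with overlapping groups.

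The sequences below are from GRCm38.p6, are written in the direction of the gene, and have each CpG in capitals. The first pair are 2 of the 4 RefSeq promoters listed for *Fut8* (250 bases before to 50 after a start), shown because they had at most 2.22% methylation in any library. The other two lie further into the gene and held 0 calls and at most 1 call per library. The first of them, at chr12:77237854-77238153 on the plus strand, holds 18 CpGs and covers the upstream start, and the second, at chr12:77238489-77238788, lies within the gene record at another RefSeq start and holds 39.
Fut8 upstream start: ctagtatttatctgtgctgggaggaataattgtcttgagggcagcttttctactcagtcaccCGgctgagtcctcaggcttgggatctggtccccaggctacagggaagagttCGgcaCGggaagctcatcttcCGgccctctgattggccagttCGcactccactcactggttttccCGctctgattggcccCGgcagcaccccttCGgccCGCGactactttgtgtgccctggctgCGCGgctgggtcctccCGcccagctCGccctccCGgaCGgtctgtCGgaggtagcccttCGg
Fut8 second start: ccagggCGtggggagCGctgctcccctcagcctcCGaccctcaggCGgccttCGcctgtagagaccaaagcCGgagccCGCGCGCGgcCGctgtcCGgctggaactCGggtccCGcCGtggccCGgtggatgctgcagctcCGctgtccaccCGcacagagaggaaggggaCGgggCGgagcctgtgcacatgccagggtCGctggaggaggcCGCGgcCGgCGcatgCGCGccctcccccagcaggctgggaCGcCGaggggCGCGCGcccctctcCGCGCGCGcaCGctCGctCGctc
The first had levels of 0% and 2.22% in *Tet2*+/+ and 0.714%, 0.521% and 1.22% in *Tet2*-/- libraries, and the second 0% and 0.8% against 0.389%, 0.704% and 1.23%, with 81 to 284 calls per library in the second. A level of 0% allowed up to 3.12% in the first (96 calls) and 1.89% in the second (159 calls), at 3 calls. Neither stretch set the genotypes apart.

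The next 3 stretches of 300 bases come from the 2 start bins that passed the test, at *Fut1* and *Fut4*, and from the *Fut8* window with the largest difference. The *Fut1* stretch, chr7:45616989-45617288 on the plus strand, ends directly before the start and holds 10 CpGs. The *Fut4* stretch, chr9:14751094-14751393 on the minus strand, lies wholly in the coding part of its single coding exon, begins 1 kb after the start and holds 19. The *Fut8* stretch, chr12:77250322-77250621 on the plus strand, is intronic and holds 6, the most of any 300 bases that begin at a CpG in the 5 kb window with the largest difference.
Fut1 upstream stretch: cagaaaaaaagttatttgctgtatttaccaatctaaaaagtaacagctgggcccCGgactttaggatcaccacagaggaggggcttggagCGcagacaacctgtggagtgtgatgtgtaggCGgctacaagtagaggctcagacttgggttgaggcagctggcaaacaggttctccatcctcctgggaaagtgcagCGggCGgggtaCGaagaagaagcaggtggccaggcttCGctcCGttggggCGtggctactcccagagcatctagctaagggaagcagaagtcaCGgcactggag
Fut4 coding stretch: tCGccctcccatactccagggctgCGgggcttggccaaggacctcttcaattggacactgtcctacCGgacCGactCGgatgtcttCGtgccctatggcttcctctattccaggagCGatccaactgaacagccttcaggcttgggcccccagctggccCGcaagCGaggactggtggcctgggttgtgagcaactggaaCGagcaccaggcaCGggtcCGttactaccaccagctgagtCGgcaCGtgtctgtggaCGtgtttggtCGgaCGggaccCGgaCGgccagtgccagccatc
Fut8 intronic stretch: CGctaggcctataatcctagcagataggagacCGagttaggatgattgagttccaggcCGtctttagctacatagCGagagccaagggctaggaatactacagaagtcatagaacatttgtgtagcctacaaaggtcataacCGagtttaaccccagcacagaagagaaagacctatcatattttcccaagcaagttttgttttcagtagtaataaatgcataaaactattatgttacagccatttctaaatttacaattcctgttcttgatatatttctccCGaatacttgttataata
In the *Fut1* stretch the levels were 39.7% and 47.7% in *Tet2*+/+ and 89.7%, 92.6% and 96.0% in *Tet2*-/- libraries. In the *Fut4* stretch they were 42.2% and 5.38% against 66.9%, 89.2% and 78.4%, so both *Tet2*+/+ libraries were lower but far from each other. In the *Fut8* stretch they were 76.5% and 86.4% against 97.4%, 97.7% and 96.2%. The 3 stretches were picked after their values were seen and are given as descriptions.

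Libraries held 63111735 to 110752967 calls, or 2.96 to 5.19 per CpG dyad (a CpG with both strands added). Levels over the autosomes and the X chromosome were 67.3% and 62.3% in *Tet2*+/+ and 70.9%, 74.8% and 68.4% in *Tet2*-/- blasts, so most regions had a higher mean in the *Tet2*-/- group, with a median difference of 2.22 points over 19455 promoters and 4.95 points over 20715 gene bodies. The 5 libraries measure DNA methylation, RNA was not analysed here, and the labelled myeloid cells could be checked by promoter methylation only. Promoters of the 5 myeloid markers were at 3.39% to 53.4%, with *Mpo* at 7.46% to 16.2%, and those of 6 T and B cell genes at 16.3% to 90.6%. All *Tet2*-/- libraries lay above both *Tet2*+/+ libraries in 5 of these 6 and in 7 of all 15 markers, against 32.8% of all promoters. None of 15 marker promoters passed edgeR's adjusted threshold (3 at an unadjusted p under 0.05, against 18.1% of all promoters), beside 1.06% of all promoters that passed as higher, and the part of cell mixture in the results was not tested.

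A promoter here reaches 1 kb to either side of the point where the gene record begins. The means over the 5 libraries put *Fut8* lowest, then *Fut7*, *Fut4* and *Fut11*, which lay between 0% and 7.23% and overlapped one another, then *Fut10*, *Fut1* and *Fut9*, and *Fut2* highest. *Fut8* had 142 CpG dyads, more than 91.5% of all tested promoters, and *Fut11* 138, *Fut4* 92, *Fut9* 66, *Fut10* 54, *Fut1* 49, *Fut2* 30 and *Fut7* 24, against a median of 70. Low methylation thus went with CpG density for *Fut8*, *Fut11* and *Fut4*, while *Fut7* was low with few CpGs. Of the 8 promoters 0 passed an adjusted p of 0.05 in edgeR's quasi-likelihood test, beside 1.06% of all tested promoters that passed as higher in that test. In limma 0 of the 8 passed, and the share of all promoters that passed in limma is not given here. At an unadjusted p under 0.05, 2 did (*Fut1* and *Fut10*), against 18.1% of all promoters. All *Tet2*-/- libraries lay above both *Tet2*+/+ libraries in 3 of 8, against 32.8% of all promoters. The mean was higher in *Tet2*-/- blasts in 7 of 8, against 76.7% of all promoters, but after each library's median was subtracted *Fut4*, *Fut8* and *Fut11* turned lower.

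**Figure D1:**
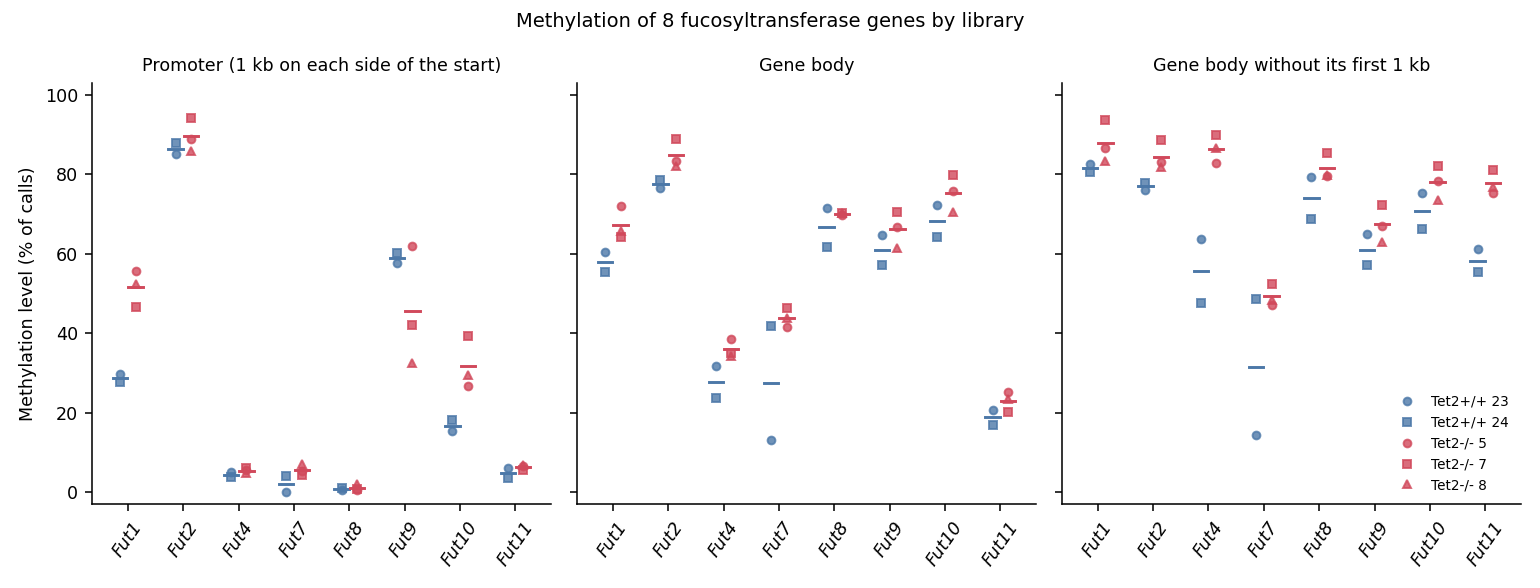
Methylation level (percent of calls, vertical axis) of the 8 genes in each of the 5 libraries, for promoters, gene bodies and gene bodies without their first 1 kb. Blue symbols are the 2 *Tet2*+/+ and red symbols the 3 *Tet2*-/- libraries, and bars are group means; *Fut8*, *Fut7*, *Fut4* and *Fut11* promoters lie near 0, and in the third panel, without the first 1 kb, the group means of *Fut4* and *Fut11* are 30.8 and 19.4 points apart, against 8.34 and 4.08 for the whole bodies.

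*Fut8* (ENSMUSG00000021065.16, chr12:77238125-77476338, plus strand) is the longest of the 8 genes. Its promoter was at 0.617% and 1.02% in *Tet2*+/+ and 0.606%, 0.907% and 2.0% in *Tet2*-/- libraries, from 450 to 1103 calls. The groups overlapped, with a difference of 0.35 points (edgeR adjusted p = 0.818, exact permutation p = 0.9, two-sided). With 2 against 3 libraries, 10 splits exist and the smallest exact p is 0.1, so no exact test could pass 0.05. The window overlaps the bidirectional lncRNA 9530018F02Rik, which starts 538 bp into *Fut8* on the other strand, and its methylation belongs to both. The start of the transcript *Fut8*-201, further downstream, was just as bare, at 0.555% and 0.894% against 0.188%, 0.718% and 1.25%. Methylation stayed at or below 2.86% in each library in every 500 bp bin with at least 20 calls in each, from 0.5 kb before to 2 kb after the start. In the bin directly before the start the groups did not overlap, at 0% in both *Tet2*+/+ libraries (0 of 83 and 0 of 89 calls, which allow up to 3.61% and 3.37%) against 2.86%, 1.28% and 1.89% (2.01 points, edgeR adjusted p = 0.286), from 53 to 156 calls. In a window of 2 kb on each side the difference turned to -1.27 points (adjusted p = 0.457).

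The whole *Fut8* body was at 71.5% and 61.8% in *Tet2*+/+ and 69.7%, 70.3% and 70.2% in *Tet2*-/- libraries. The 3 *Tet2*-/- libraries were close together and lay between the 2 *Tet2*+/+ libraries. The difference was 3.39 points (edgeR adjusted p = 0.565, exact p = 0.6), and without *Tet2*+/+ 24 it was -1.48. This level adds calls of very unlike parts. The first 5 kb of the body, with 198 of its 1276 dyads, had 0.541% to 1.37% methylation in every library, and it took 14.3% and 16.9% of the calls of the body in *Tet2*+/+ but 20.2%, 24.4% and 21.4% in *Tet2*-/- libraries. Over the genome the share of calls that fell in promoters moved the same way, at 5.98% and 6.37% against 6.67%, 7.68% and 6.78%.

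After the first 5 kb, *Fut8* was at 83.3% and 74.2% in *Tet2*+/+ and 87.1%, 92.7% and 89.0% in *Tet2*-/- libraries. Every *Tet2*-/- library was above both *Tet2*+/+ libraries. The difference was 10.8 points (78.8 ± 6.46%, SD, n = 2, against 89.6 ± 2.83%, n = 3; edgeR adjusted p = 0.0230; exact permutation p = 0.1), in a fit where 5.39% of bodies passed as higher and the median difference was 5.93 points. Leaving out *Tet2*-/- 7 kept the call, and leaving out *Tet2*+/+ 23, *Tet2*+/+ 24, *Tet2*-/- 5 or *Tet2*-/- 8 in turn lost it, with differences of 6.25 to 15.4 points and 6.25 without *Tet2*+/+ 24. In limma the adjusted p was 0.0507, and after median subtraction 0.374. The mean over 5 kb windows of equal weight gave 10.4 points. This division was made after the values were seen. Within the gene, the 28 dyads of the coding sequence were at 87.1% and 75.4% against 90.8%, 93.5% and 94.9%. All exons together ran the other way, at 60.3% and 51.0% against 49.0%, 46.2% and 47.3%, lower in every *Tet2*-/- library (-8.19 points, exact permutation p = 0.1). The 48 dyads outside the coding sequence, which were less methylated, gave 56.0% and 53.1% of these calls in *Tet2*+/+ but 64.0%, 67.1% and 70.6% in *Tet2*-/- libraries. Their own level was 39.2% and 29.5% against 25.4%, 22.9% and 27.5%.

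Of 49 windows of 5 kb that touch *Fut8*, 45 had at least 20 calls in every library, and 1 of the other 4 lies wholly in masked repeats and held at most 1 call. Among the 45, 5 passed as higher in *Tet2*-/- blasts, against 3.22% of 488658 windows of the genome, and 0 as lower, against 0.0217%, with 20 at an unadjusted p under 0.05, against 18.2%. The mean was higher in 42, against 86.7% of all windows. All *Tet2*-/- libraries lay above in 25, against 36.6% of all windows, and below in 1, against 1.28%. The median difference was 10.0 points, against 6.14 over the genome. The only window with all *Tet2*-/- libraries below was the one with the start, at 6.63% and 7.32% against 5.89%, 4.92% and 6.04%, a difference of -1.36 points (adjusted p = 0.558).

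The window with the largest difference, chr12:77250001-77255000, lies 14.4 kb into the gene in an intron, with 16 dyads. It was at 67.5% and 62.7% in *Tet2*+/+ and 93.2%, 98.9% and 89.8% in *Tet2*-/- libraries (28.8 points, edgeR adjusted p = 0.000256). The neighbouring window, chr12:77245001-77250000, was at 73.6% and 54.4% against 88.5%, 92.0% and 83.6% (24.1 points, adjusted p = 0.0164). Together these intronic windows span 10 kb of the gene. The third, chr12:77450001-77455000, at 214 kb, touches an exon and was at 83.2% and 71.8% against 88.6%, 96.5% and 95.4% (16.0 points, adjusted p = 0.0130). The other two windows past the threshold, chr12:77330001-77335000 and chr12:77455001-77460000, differed by 13.1 and 12.5 points. In all 5 the groups did not overlap. Without *Tet2*-/- 5 or *Tet2*-/- 7, 3 windows of *Fut8* passed. The share of all windows that passed in these reduced fits is not given here. Without *Tet2*+/+ 24, the library with the lowest level in the genome, the differences at 9.38, 214 and 219 kb fell to 14.5, 10.3 and 5.85 points. Without *Tet2*+/+ 23 the one at 219 kb was 19.2 points.

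**Figure D2:**
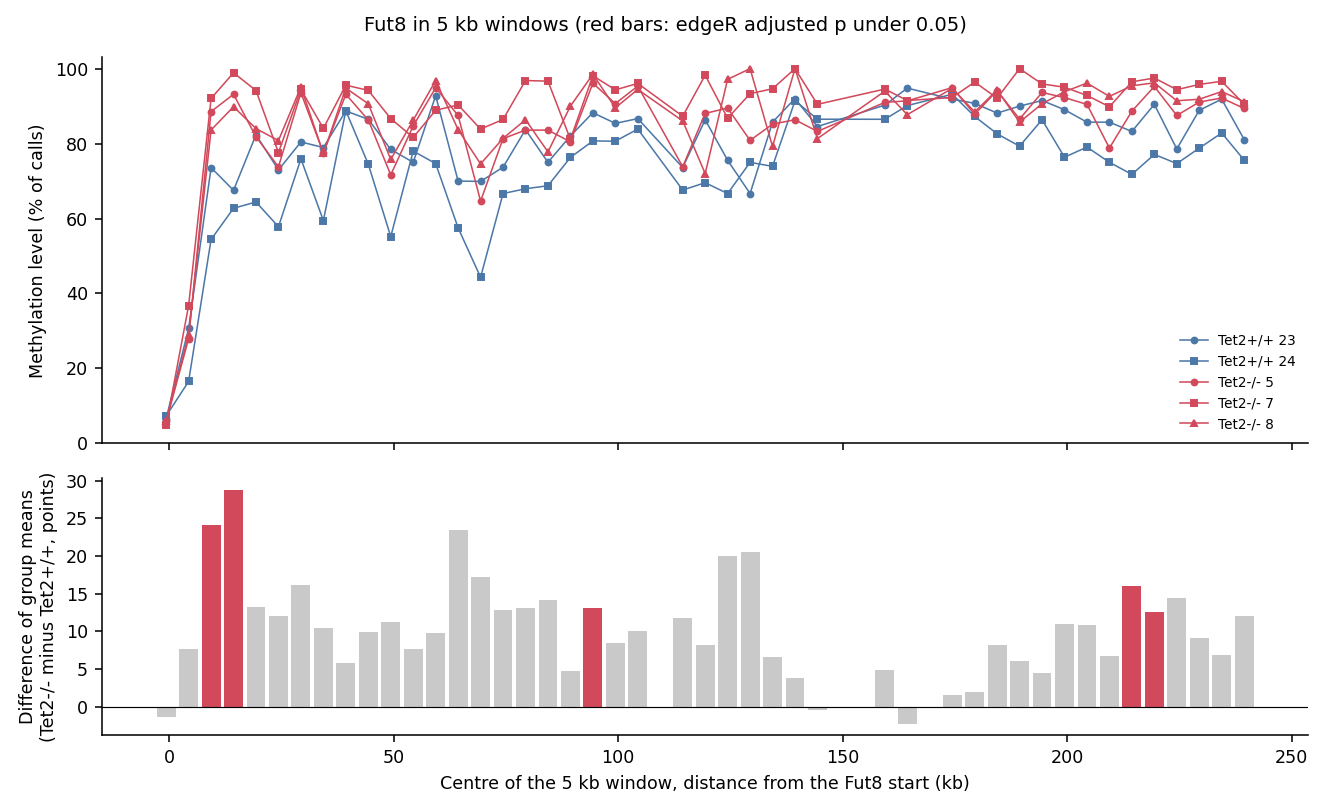
Above, methylation level (percent of calls) of each library in the 45 tested 5 kb windows along *Fut8*, by the distance of the window centre from the start in kb. Below, the difference of group means in points, with the 5 windows past the edgeR threshold in red; 42 of 45 bars lie above 0, and the largest, 28.8 points, stands at 14.4 kb.

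*Fut9* (chr4, minus strand) and *Fut10* (chr8, plus strand) are long as well and were measured in 40 and 16 tested windows, none of which passed, against 3.22% of all windows (3 and 2 at an unadjusted p under 0.05, against 18.2%). Their windows had median differences of 7.54 and 5.54 points, against 6.14. A difference in the number of passing windows between these genes and *Fut8* was not tested. The gene bodies with levels most like those of *Fut8* over the 5 libraries, among 8736 with at least 1000 calls in each, were *Ncbp1*, *Tbc1d15* and *Smtn*, with root mean square differences of 0.917, 0.979 and 1.05 points.

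*Fut1* (ENSMUSG00000008461.6, chr7:45617289-45621059, plus strand) had the largest promoter difference of the 8 genes. Its promoter was at 29.7% and 27.8% in *Tet2*+/+ and 55.7%, 46.6% and 52.4% in *Tet2*-/- libraries. The groups lay 16.9 points apart at their nearest, but the difference of 22.8 points did not pass edgeR's adjusted test (adjusted p = 0.0949, exact permutation p = 0.1). It passed with 2 kb on each side, at 18.9 points (adjusted p = 0.0461). The 500 bp directly before the start were at 51.3% and 55.7% in *Tet2*+/+ and 90.5%, 94.0% and 90.6% in *Tet2*-/- libraries. In a fit of 500 bp bins within 5 kb of every start this was a difference of 38.2 points (14 dyads, edgeR adjusted p = 0.0130). The call was lost without *Tet2*+/+ 23 (adjusted p = 0.118), *Tet2*+/+ 24 (0.232) or *Tet2*-/- 8 (0.0651). The RefSeq start lies further downstream, and the 300 bases around it were at 14.1% and 13.5% against 42.9%, 28.7% and 33.3%. The *Fut1* body was at 60.6% and 55.5% against 72.0%, 64.3% and 65.7% (9.34 points, adjusted p = 0.245).

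Of the bins around the 8 starts, 61 had at least 20 calls in each library, and 2 of them passed as higher, against 2.31% of 147496 such bins, while 13 had an unadjusted p under 0.05, against 16.4%. All *Tet2*-/- libraries lay above in 20 of 61, against 32.2%. The fit by bins was added after the data had been seen.

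*Fut2* (chr7, minus strand), which lies near *Fut1* with *Izumo1* and *Mamstr* between them, was the most methylated member at its promoter, at 85.0% and 87.9% against 89.0%, 94.1% and 86.0% (3.24 points, adjusted p = 0.640, overlapping). Its body was at 76.7% and 78.7% in *Tet2*+/+ and 83.4%, 89.0% and 82.0% in *Tet2*-/- libraries. The groups did not overlap, and the difference of 7.09 points passed (edgeR adjusted p = 0.0360, exact permutation p = 0.1). It stayed past the threshold without *Tet2*-/- 8 and lost the call without any other library, with differences of 5.0 to 8.48 points.

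*Fut4* (ENSMUSG00000049307.6, chr9:14748320-14752393, minus strand) has its coding sequence in a single exon. Its promoter was at 5.12% and 3.88% in *Tet2*+/+ and 5.65%, 6.05% and 4.78% in *Tet2*-/- libraries (0.99 points, adjusted p = 0.727). The first 1 kb after the start held 84 dyads in 2 bins, each at 0.535% to 1.55% in every library. The next 500 bp, with 34 dyads, were at 40.6% and 7.74% in *Tet2*+/+ and 73.7%, 89.6% and 82.1% in *Tet2*-/- libraries. This difference of 57.6 points was the larger of the 2 that passed among the bins (edgeR adjusted p = 0.00510), and the spread within *Tet2*+/+ was large. Without *Tet2*+/+ 24, the lower of these, it was 41.2 points (adjusted p = 0.394). From 1.5 to 2 kb all libraries were at 86.4% or more. From 2 to 2.5 kb, with 6 dyads, the order turned, at 100% in both *Tet2*+/+ libraries and 92.2%, 91.4% and 80% in *Tet2*-/- libraries (-12.1 points, edgeR adjusted p = 0.145). The groups therefore differed most in the 500 bp of coding sequence between the bare and the highly methylated part of *Fut4*.

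The whole *Fut4* body, which sums both parts, was at 31.8% and 23.6% in *Tet2*+/+ and 38.6%, 35.1% and 34.4% in *Tet2*-/- libraries (8.34 points, adjusted p = 0.155). Without its first 1 kb it was at 63.7% and 47.7% against 82.9%, 90.0% and 86.6%. All *Tet2*-/- libraries were above, by 30.8 points (55.7 ± 11.3%, SD, n = 2, against 86.5 ± 3.55%, n = 3; edgeR adjusted p = 6.27e-05; exact permutation p = 0.1), in a fit where 10.3% of bodies passed as higher. The call was lost without *Tet2*+/+ 24 (22.8 points, adjusted p = 0.408) and held without each other library, and after median subtraction the adjusted p was 0.166 in limma.

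**Figure D3:**
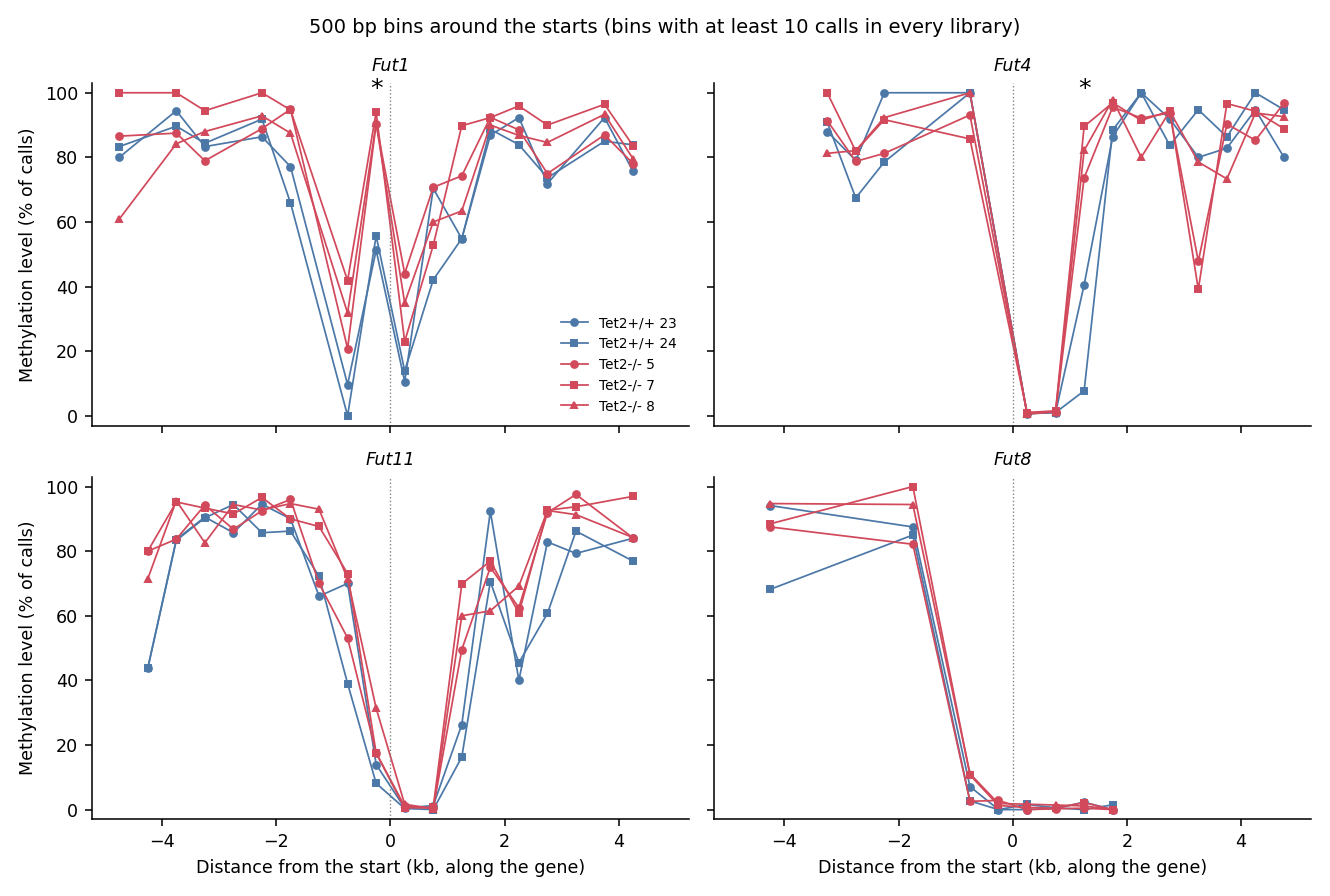
Methylation level (percent of calls) of each library in 500 bp bins within 5 kb of the starts of *Fut1*, *Fut4*, *Fut11* and *Fut8*, by distance along the gene in kb; only bins with at least 10 calls in every library are drawn and lines join them across gaps. Asterisks mark the 2 bins past the edgeR threshold, directly before the *Fut1* start and 1 to 1.5 kb after the *Fut4* start, and *Fut4*, *Fut11* and *Fut8* lie near 0 in all libraries in the first 1 kb.

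*Fut11* (chr14:20694968-20701016, plus strand) was also bare in the first 1 kb after its start and methylated further on. Its promoter, which overlaps the 3′ end of *Sec24c* and the antisense gene 6230400D17Rik, was at 6.11% and 3.53% against 6.60%, 5.68% and 6.85% (1.56 points, adjusted p = 0.583). The 500 bp directly before the start, with 15 dyads, were at 14.0% and 8.14% in *Tet2*+/+ and 17.6%, 17.5% and 31.4% in *Tet2*-/- libraries. The groups did not overlap there, and the difference of 11.1 points did not pass (edgeR adjusted p = 0.482). The first 1 kb of the gene was at or below 1.65% in every library. The bin at 1 to 1.5 kb was at 26.3% and 16.2% in *Tet2*+/+ and 49.5%, 69.9% and 60.0% in *Tet2*-/- libraries (38.5 points, 14 dyads, edgeR adjusted p = 0.0683). Without its first 1 kb the body was at 61.2% and 55.4% against 75.3%, 81.0% and 76.9%, higher in every *Tet2*-/- library by 19.4 points (adjusted p = 0.0402). This call held without *Tet2*-/- 7 and was lost without any other library, at 16.5 to 22.4 points, and after median subtraction (limma adjusted p = 0.245). The whole body differed by 4.08 points (adjusted p = 0.383).

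*Fut7* (chr2:25423267-25426374, plus strand) stood apart in 1 library. The promoter was at 0% (0 of 73 calls, which allows up to 4.11%) and 4.17% in *Tet2*+/+ and 5.45%, 4.49% and 7.23% in *Tet2*-/- libraries, from 73 to 165 calls (3.64 points, adjusted p = 0.459, groups not overlapping). The body was at 13.2% and 41.9% in *Tet2*+/+ and 41.5%, 46.5% and 43.8% in *Tet2*-/- libraries. *Tet2*+/+ 23 was low, and *Tet2*+/+ 24 lay within the *Tet2*-/- values. The difference of 16.4 points passed in edgeR (adjusted p = 0.0268), but the groups overlapped (exact permutation p = 0.2), and without *Tet2*+/+ 23 it was 2.07 points (adjusted p = 0.857), and without *Tet2*+/+ 24 30.8 points. It was also lost without *Tet2*-/- 5 (17.6 points, adjusted p = 0.0646). The coding sequence alone was at 13.9% and 50.7% against 47.5%, 54.9% and 51.0%.

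Motifs of C/EBP (TTGCNNAA) and GATA factors (AGATAA) were searched on both strands in the 300 bases of each of the 9 RefSeq promoters of 5 members. They occur in 10.8% and 11.2% of 32851 RefSeq promoters. The upstream *Fut7* promoter, chr2:25422992-25423291, holds 1 C/EBP match, TTGCGCAA, which reads alike on both strands and begins 58 bases before the start, and 1 GATA match on the reverse strand. It is shown because this C/EBP match, visible as ttgCGcaa, contains a CpG.
Fut7 promoter: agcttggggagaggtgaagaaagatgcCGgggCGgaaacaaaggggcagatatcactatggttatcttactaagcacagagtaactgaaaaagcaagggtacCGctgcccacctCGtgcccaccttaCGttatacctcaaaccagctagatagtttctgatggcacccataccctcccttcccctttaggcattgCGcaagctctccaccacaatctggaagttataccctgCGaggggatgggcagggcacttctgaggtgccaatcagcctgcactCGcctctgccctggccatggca
Its 8 CpGs were at 0% in both *Tet2*+/+ libraries and at 3.28%, 0% and 0% in *Tet2*-/- libraries, from 25 to 61 calls, where 0 methylated calls allow up to 4.92% to 12%. The upstream *Fut8* promoter printed above holds 1 GATA match on the reverse strand, 243 bases before the start, and no C/EBP match in these letters. *Fut2*, *Fut9* and *Fut10* were not in the table of promoters.

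*Fut9* was the only promoter with a lower mean in *Tet2*-/- blasts. It was at 57.7% and 60.3% in *Tet2*+/+ and 62.0%, 42.0% and 32.7% in *Tet2*-/- libraries. *Tet2*-/- 5 was the highest of all 5 and *Tet2*-/- 8 the lowest, so the difference of -13.5 points lay within the spread of the *Tet2*-/- group (SD 15.0; edgeR adjusted p = 0.449, exact permutation p = 0.4). It was -21.7 points without *Tet2*-/- 5 and -7.01 without *Tet2*-/- 8. The *Fut9* body was at 64.7% and 57.3% against 66.9%, 70.6% and 61.5% (5.32 points, adjusted p = 0.347).

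*Fut10* was intermediate at its promoter, at 15.5% and 18.1% in *Tet2*+/+ and 26.8%, 39.3% and 29.6% in *Tet2*-/- libraries. The groups did not overlap, and the difference of 15.1 points did not pass (edgeR adjusted p = 0.135, exact permutation p = 0.1). Its body was at 72.2% and 64.3% against 75.9%, 79.8% and 70.6% (7.17 points, adjusted p = 0.13).

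Over the 8 whole bodies, 2 passed as higher (*Fut2* and *Fut7*), against 15.5% of all bodies, and in 3 (*Fut1*, *Fut2* and *Fut4*) all *Tet2*-/- libraries lay above, against 46.0%. The mean was higher in all 8, against 87.9% of all bodies, and after the median of each library was subtracted *Fut8*, *Fut9* and *Fut11* turned lower. With 1 library left out in turn, differences that did not pass moved widely, from 1.62 to 9.02 points for the *Fut9* body, 3.21 to 11.1 for *Fut10*, 4.27 to 12.4 for *Fut4* and 2.15 to 6.01 for *Fut11*. For promoters the ranges were 1.04 to 5.11 points for *Fut2*, 0.373 to 1.62 for *Fut4*, 1.56 to 5.72 for *Fut7* and 0.264 to 2.85 for *Fut11*. Bodies without their first 1 kb passed in 2 of 8 (*Fut4* and *Fut11*), against 10.3% of all bodies shortened in this way, and all *Tet2*-/- libraries lay above in 5, against 60.0%. Depth over each gene together with 500 kb on each side, relative to the autosomes, was 1.03 to 1.06 for *Fut8* and 0.645 to 1.32 for the other members. For *Fut1* it was 1.12 and 1.14 in *Tet2*+/+ and 1.21, 1.28 and 1.19 in *Tet2*-/- libraries. The *Fut8* body alone had a lower relative depth, at 0.772 to 0.834.

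The genes around these enzymes were taken from a list of 27 that supply GDP-fucose, carry it into the Golgi, add O-fucose to proteins or extend it, remove fucose, prepare N-glycans for core fucose, or make, bear or bind sialyl Lewis X. Of their promoters 1 passed as higher, against 1.06% of all promoters, and 0 as lower, with a median difference of 1.01 points, beside 2.22 over all promoters. This was *Lfng*, the fringe enzyme that extends O-fucose on Notch receptors, at 0.383% and 1.15% in *Tet2*+/+ and 8.70%, 4.28% and 10.9% in *Tet2*-/- libraries (7.19 points, edgeR adjusted p = 0.0228). It was lost without *Tet2*+/+ 23, *Tet2*+/+ 24 or *Tet2*-/- 8. All *Tet2*-/- libraries lay above in 8 of the 27 promoters and below in 1, *Pofut1*, against 32.8% and 4.05% of all promoters. They lay above in 14 of the 27 bodies and below in 1, against 46.0% and 1.46% of all bodies. That 1 body was *Lfng*, at 31.6% and 31.9% against 29.4%, 26.0% and 27.9% (-4.05 points). The promoters with the largest differences in size were *St3gal6*, a sialyltransferase of sialyl Lewis X, at 16.2 points (adjusted p = 0.192), *Fuk*, the kinase that recycles fucose, at 9.92 points (0.374), and *Selplg*, the main ligand of P-selectin, at 8.99 points (0.434), and none of these 3 passed.

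Of the 27 bodies 4 passed as higher, a share close to the 15.5% of all bodies, and 0 as lower, with a median of 4.19 points against 4.95, so the list did not stand out from other genes by count or median. *Slc35c1*, the Golgi GDP-fucose carrier, was at 25.9% and 23% against 38.3%, 36.1% and 39.7% (13.6 points, edgeR adjusted p = 0.0108). *St3gal6* was at 53.9% and 48.7% against 62.1%, 66.7% and 64.0% (13 points, 0.0111). *Fuk* was at 69.1% and 67.1% against 73.4%, 87.0% and 76.2% (10.8 points, 0.00804). *Mgat2*, an enzyme that branches N-glycans, stayed low, at 1.94% and 1.95% against 3.28%, 5.90% and 5.05% (2.80 points, 0.0224). In each of these 4 the groups did not overlap, each call was lost without *Tet2*+/+ 24, and none of the 27 bodies passed in limma. Without *Tet2*+/+ 23 *Fuk* and *Mgat2* were lost, without *Tet2*-/- 5 *Slc35c1* and *St3gal6*, and without *Tet2*-/- 7 *Fuk*, at 6.69 points, and *Mgat2*.

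**Figure D4:**
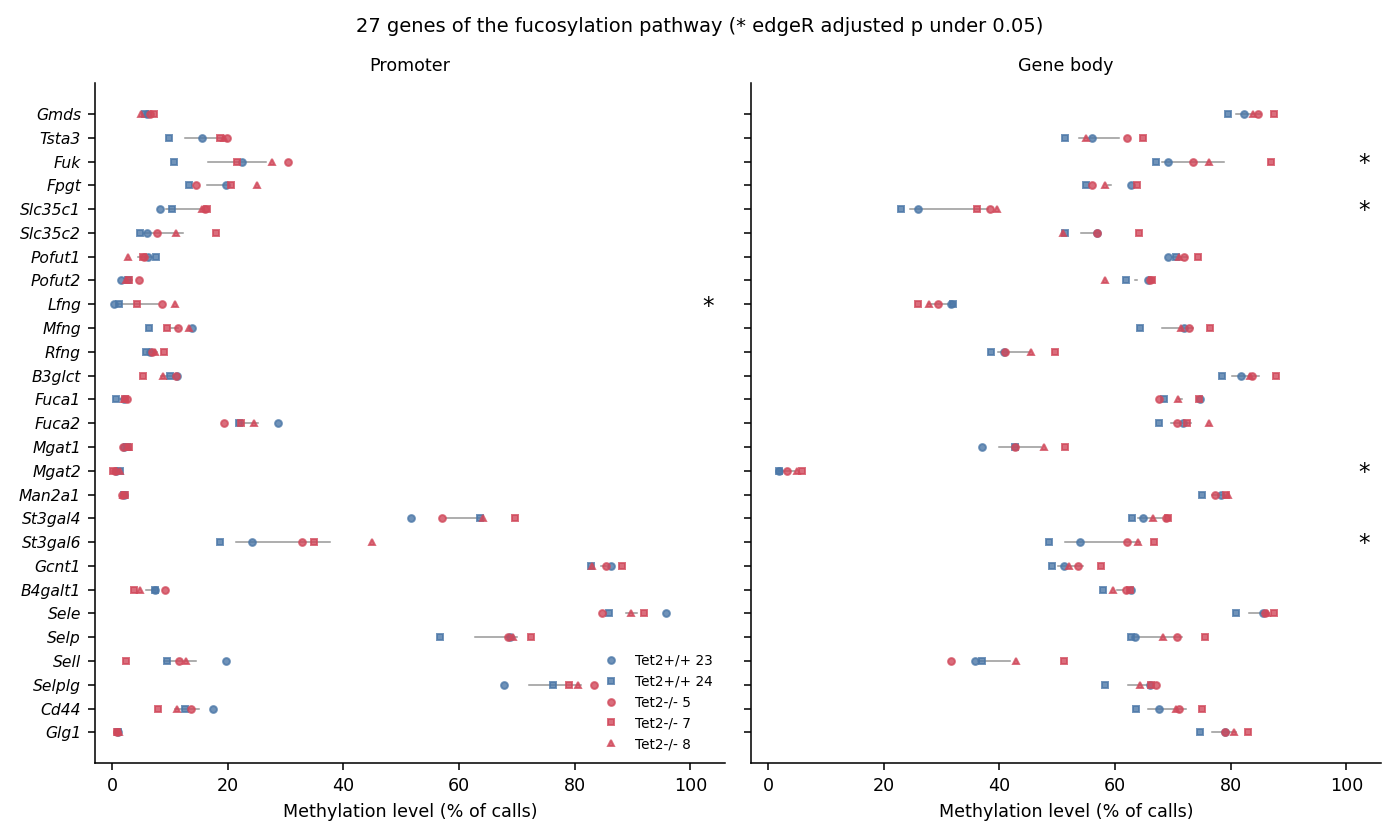
Methylation level (percent of calls, horizontal axis) of the promoter and the body of the 27 pathway genes in each of the 5 libraries, with a grey line between the group means. Asterisks mark the *Lfng* promoter and the *Fuk*, *Slc35c1*, *Mgat2* and *St3gal6* bodies, which passed the edgeR threshold as higher in *Tet2*-/- blasts.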

How the data were processed

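DNA of sorted blasts was bisulfite converted, made into libraries with the Pico Methyl-Seq kit and sequenced by the authors, who trimmed reads with Trim Galore 0.4.3, aligned them to GRCm38 (mm10) with Bismark 0.19.1 and Bowtie2 and removed duplicate alignments, per the submitters' processing notes and the methods of the study. For each CpG cytosine the authors deposited 2 counts, reads that called it methylated and reads that called it unmethylated, without normalization. Counts of both strands were added per dyad. Regions needed at least 20 calls in every library. The groups were compared with edgeR 4.0.16 (R 4.3.3, quasi-likelihood, 2 columns per library, a coefficient per library), adjusted by Benjamini-Hochberg over all regions of a kind at 0.05, and single regions by an exact permutation test over 10 splits, two-sided. limma 3.58.1 on log2((methylated + 2)/(unmethylated + 2)) was an alternative. The promoter, body and 5 kb window fits were tested on simulated data with large differences only, of which the promoter fit missed many. Members and lists were chosen with earlier results of these data known. All 8 members were named. Windows named were the 3 with the largest difference past the threshold and the one with the start, and pathway genes those past the threshold and the 3 largest in each fit; the other two windows past the threshold were added after their values were seen. Sequences are from RefSeq and GRCm38.p6. No batch is named in the labels, so batch and group cannot be told apart. The study gives 2 *Tet2*+/+ and 3 *Tet2*-/- mice for its WGBS. It also reports several recipients per donor mouse, and does not say which of the WGBS mice shared a donor. The labels do not say whether libraries came from separate primary leukemias, so p-values measure the spread between these libraries. No molecular identifiers are described, so depth speaks to counting error only.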

Additional observations from a re-analysis of the deposited data

How the results depend on the processing

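No paired analysis was possible because the groups share no replicate numbers. Subtracting the median of each library took out a shift of 0.45 (promoters), 0.42 (bodies), 0.52 (5 kb windows) and 0.97 (500 bp bins) on the log2 scale; after it, 0 whole bodies, 0 *Fut8* windows, 0 bins, 0 pathway promoters and 0 pathway bodies passed, and the log2 difference became negative for the *Fut8* promoter (-0.33) and body (-0.21), the *Fut4* promoter (-0.21), the *Fut9* body (-0.0856) and the *Fut11* promoter (-0.0227) and body (-0.0697). It stayed positive in the *Fut4* (3.15) and *Fut1* (1.96) bins. In limma 0 bodies, 2 *Fut8* windows and 0 pathway bodies passed. In edgeR's likelihood ratio test 4 bins passed. For these alternative fits the share of all regions that passed is not given here, so the counts do not single out these genes. With 2 kb on each side 1 member promoter passed (*Fut1*), and the *Fut8* promoter differed by -1.27 points. Without its first 5 kb the *Fut8* body differed by 10.8 points and passed, and the mean of its windows differed by 10.4. With each library left out in turn, 0 promoters, 0 to 2 bodies, 0 to 6 *Fut8* windows, 0 to 3 bins, 0 or 1 pathway promoters and 0 to 4 pathway bodies passed, the *Fut8* promoter differed by -0.0625 to 0.634 points and the *Fut8* body by -1.48 to 8.26. A lone *Tet2*+/+ library is then assumed to vary like the others. The share of all regions that passed in these reduced fits is not given here either. Apart from the constructions named, the cause of these changes was not tested. Depth left 5 to 12 tested bins per gene around the starts, fewest for *Fut8* and *Fut9*, and bins with under 20 calls in any library were not tested.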
